A study of Mus musculus with 4 samples.

Results

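The genes described here are 50 genes whose products act in mitosis, taken from a list of gene names. All 50 were among the 17712 genes counted in 4449 epithelial cells of the mouse stomach. They comprise cyclins and their kinase, other mitotic kinases, the spindle checkpoint, the anaphase machinery, kinetochore and chromosomal passenger proteins, spindle motors, cytokinesis factors, condensin and proteins of the mitotic chromosome.

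A cell enters mitosis when cyclin A and cyclin B switch on the kinase Cdk1. Condensin and topoisomerase II then compact the chromosomes, kinetochores attach them to the spindle, and a checkpoint holds back the anaphase-promoting complex until every chromosome is attached. Many of these genes are transcribed late in the cell cycle, through promoter elements read by the DREAM, MuvB and FoxM1 complexes, and are kept silent in resting cells. In the corpus of the stomach the dividing cells sit in the isthmus, between the pit cells that line the surface and the neck, parietal and chief cells deeper in the gland.

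All 4 libraries came from Rosa26iH2b-GFP mice aged 14 weeks, female according to the methods, which carry a doxycycline-inducible histone 2B-GFP and a constitutively expressed transactivator, both at the Rosa26 locus. Every group had a doxycycline diet and then a chase without the drug, so that a nucleus keeps GFP as long as it divides little. The Epcam+ group (2 libraries) held live Epcam-positive cells taken without regard to GFP, and the GFP+ group (2 libraries) held the GFP-positive cells among the Epcam-positive ones, with Cd45 and Cd31 cells gated out of both. Sorted cells of 2 mice were combined for loading, the labels tie no library to an animal, and no library came from mice without doxycycline or without the transgene, so p-values measure only the spread between libraries, which may be technical. GFP was not induced in every epithelial cell, so that a GFP-negative cell need not have divided.

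The Epcam+ libraries held 1642 and 1896 cells and the GFP+ libraries 467 and 444, with between 35571141 and 79455225 unique molecular identifiers (UMIs, each one captured molecule) in a library. Only 4 cell barcodes occurred in more than one library. The study's clusters were used as given, and the names follow its account and were checked against marker genes. In the Epcam+ libraries, chief cell markers (5 genes, without Clps, Pla2g1b and Pgc) summed to 132780 and 134320 UMIs when scaled to 1000000 (CPM) in cluster 1. They reached at most 1419 CPM in cluster 0, but 22797 and 4813 in cluster 7. Pit markers summed to 103560 and 122300 CPM in cluster 2, endocrine markers to 105230 and 98830 CPM in cluster 6, and parietal markers to 6785 and 8680 CPM in cluster 8. Pit markers also summed to 37817 and 49705 CPM in cluster 3 and 36589 and 50757 in cluster 4. Cluster 0 is the neck cluster, clusters 3 and 4 are the isthmus clusters, and cluster 5 is the smaller of the chief clusters. Neck markers summed to 57305 and 25832 CPM in cluster 0, 37666 and 31661 in cluster 3 and 32484 and 28002 in cluster 4. In Epcam+ replicate 2 they were thus higher in the isthmus clusters, and the check did not single out cluster 0 there. In cluster 5 chief markers (54713 and 52141 CPM) stood beside pit markers (30486 and 26139 CPM), and 37 of the 74 cells called doublets lay there.

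Levels are CPM of the UMIs outside Clps, Pla2g1b and Pgc, 3 secretory genes that take up most of a chief cell's UMIs, summed over the cells of a cluster in a library. One UMI is 1 molecule whatever the gene's length. The clusters were made from the expression of genes that include these, so levels between clusters are a description and carry no test.

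All 50 genes were higher in cluster 4 than in cluster 3, the other isthmus cluster, in both Epcam+ libraries. The median difference was 2.28 on the log2(CPM + 1) scale and 47 genes differed by more than 2-fold, while over the 11364 genes with at least 40 UMIs in these clusters the median was 0.01 and 39.1% were higher in both libraries. In 49 of the 50 the highest mean level of any cluster was in cluster 4, the exception being Pttg1. Together the 50 genes made 11997 and 12394 CPM in cluster 4, 2788 and 3026 in cluster 3, 1618 and 1359 in the parietal cluster 8, 1015 and 636 in cluster 5, 689 and 690 in pit cells, 435 and 400 in neck cells, 257 and 241 in endocrine cluster 6 and 182 and 151 in chief cluster 1. Cluster 7, also endocrine, had 410 and 364 CPM, and cluster 9, with the tuft markers, held under 20 cells in each library and was not given levels. Clusters 4 and 3 stood apart from every other cluster in both libraries, and cluster 5 differed more between its libraries than any cluster with over 100 Epcam+ cells.

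**Figure D1:**
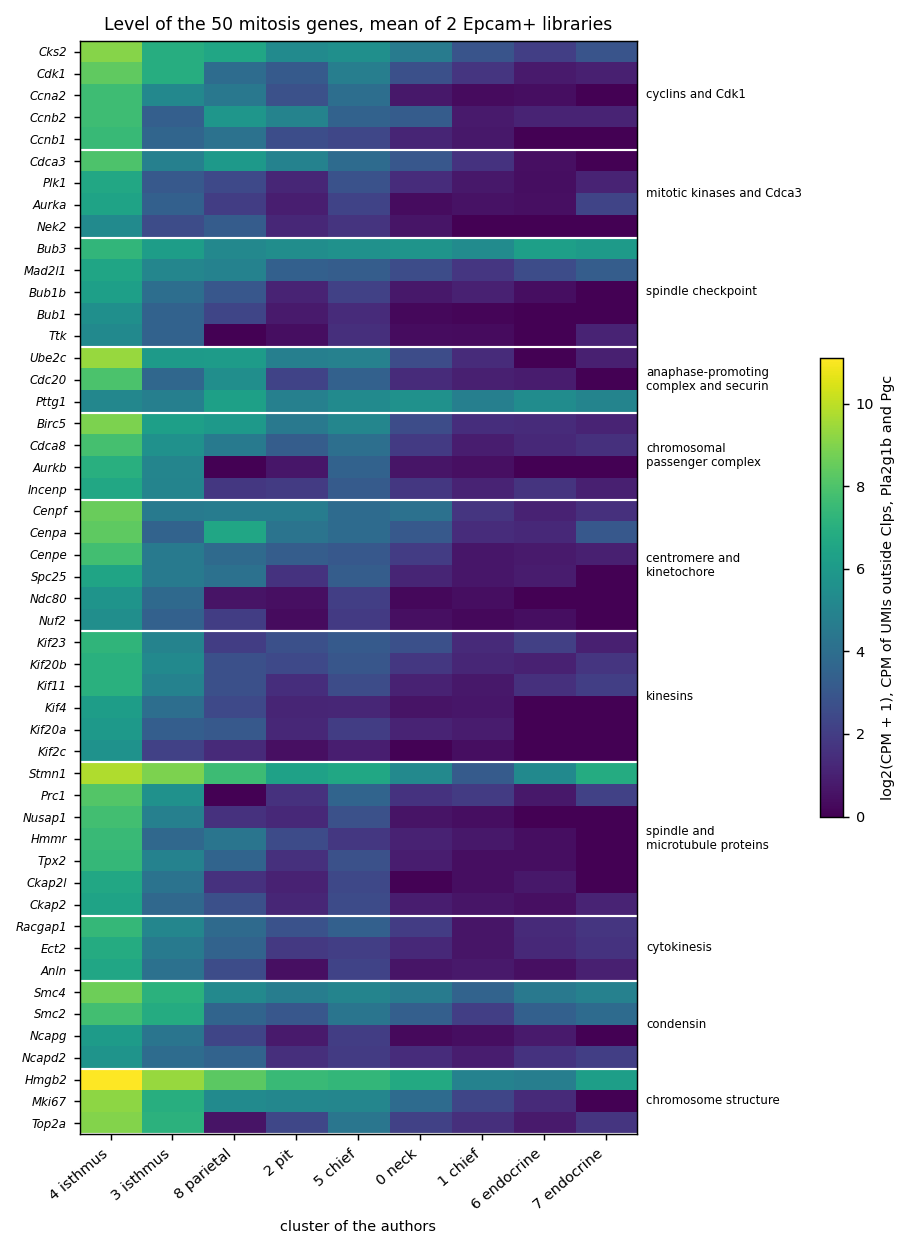
Mean level of each of the 50 mitosis genes (rows, by role) in 9 clusters (columns) of the Epcam+ libraries, as log2(CPM + 1) of the UMIs outside Clps, Pla2g1b and Pgc. The column of cluster 4 is the brightest for 49 genes, and Pttg1, Bub3, Hmgb2 and Stmn1 are also seen in most other columns.

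Other genes of the cycle split by phase. Of 65 further mitosis genes, 58 were higher in cluster 4 than in cluster 3 in both libraries (median 1.66, log2). Those with the highest mean level in cluster 4 were Spc24, a kinetochore subunit, at 209 ± 0.927 CPM (SD, n = 2), Cks1b, a Cdk subunit, at 171 ± 0.108 CPM and Pbk, a mitotic kinase, at 136 ± 8.57 CPM. In cluster 3 they were Cks1b at 80.2 ± 4.32 CPM, Spc24 at 79.1 ± 3.71 CPM and Fbxo5, an inhibitor of the anaphase-promoting complex, at 65.5 ± 7.01 CPM. Of 50 DNA replication genes, 45 were lower in cluster 4 in both libraries (median -1.01, log2). Pcna, the sliding clamp, had 379 ± 17.3 CPM in cluster 3 and 163 ± 19.4 in cluster 4, and Mcm6, of the replicative helicase, had 219 ± 2.04 and 75.4 ± 3.62. Dut, which removes dUTP, had 245 ± 12.1 and 157 ± 10.6 CPM, whereas Tyms, which makes dTMP, had 161.5 ± 4.33 and 189 ± 7.08. Cluster 3 thus held more transcript of most replication genes and cluster 4 more of the mitosis genes.

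Among the cyclins and their kinase, Cdk1, the kinase that drives entry into mitosis, had 320 and 351 CPM in cluster 4 of the Epcam+ libraries, 113 and 125 in cluster 3 and 7.41 and 8.21 in pit cells. Its small subunit Cks2 had 514 and 553 CPM in cluster 4, 119 and 121 in cluster 3 and 38.9 and 39.1 in pit cells. Both genes followed the order of the isthmus clusters over all others. Ccnb2, cyclin B2, did not: it had 198 and 202 CPM in cluster 4, 68.6 and 42.2 in parietal cells, 32.2 and 28.3 in pit cells and 8.21 and 10.0 in cluster 3. Pit and parietal cells therefore held more Ccnb2 per UMI than cluster 3 in both libraries. The group is completed by Ccnb1 (cyclin B1, mean 177 CPM in cluster 4 and 11.1 in cluster 3) and Ccna2 (cyclin A2, 200.2 and 35.3 CPM), both highest in cluster 4.

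Of the mitotic kinases, Plk1, which acts at centrosomes and kinetochores, had 101 and 96.7 CPM in cluster 4, 7.99 and 7.35 in cluster 3, 7.26 and 4.53 in cluster 5 and 1.05 and 1.51 in pit cells. Aurka, which matures the spindle poles, had 84.6 and 86.8 CPM in cluster 4 and 7.99 and 11.4 in cluster 3, and no cluster outside the isthmus had a mean above 3.79. Nek2, a centrosome kinase, had a mean of 38.8 CPM in cluster 4, 8.46 in parietal cells and 5.04 in cluster 3. Cdca3, a trigger of mitotic entry that is not a kinase, had 251 and 263 CPM in cluster 4, 76.6 and 51.02 in parietal cells, 30.6 and 28.0 in pit cells and 26.7 and 28.7 in cluster 3. Plk1 was thus lower in pit cells than in cluster 3 in both libraries, whereas Cdca3 was lower there in only 1.

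The spindle checkpoint held the most evenly expressed gene after Pttg1. Bub3, which binds Bub1 and BubR1 and is also found at telomeres and in splicing complexes, had 151 and 164.5 CPM in cluster 4, 73.7 and 68.9 in cluster 3, 77.7 and 72.1 in endocrine cells, 52.5 and 51.7 in neck cells, 43.8 and 36.5 in chief cluster 1 and 39.8 and 46.0 in pit cells. Endocrine cells and cluster 3 did not differ in Bub3 beyond the spread of their libraries. Mad2l1, the inhibitor that binds Cdc20, had 87.7 and 92.2 CPM in cluster 4, 33.8 and 31.5 in cluster 3, 30.3 and 28.5 in parietal cells and 10.97 and 8.09 in pit cells. The checkpoint kinases Bub1 and Ttk and the BubR1 gene Bub1b had means of 44.7, 37.7 and 75.9 CPM in cluster 4 and at most 6.99 CPM outside the isthmus.

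The anaphase genes varied most among themselves. Ube2c, the E2 enzyme of the anaphase-promoting complex, had 667 and 682 CPM in cluster 4, 63.8 and 66.2 in cluster 3, 70.6 and 63.8 in parietal cells, 25.2 and 28.2 in pit cells and no UMI in endocrine cluster 6. Cdc20, its activator, had 243 and 248 CPM in cluster 4, 35.3 and 52.0 in parietal cells and 12.2 and 11.7 in cluster 3. Pttg1, securin, the inhibitor of separase, had only 34.0 and 33.9 CPM in cluster 4, against 74.6 and 83.4 in parietal cells, 49.7 and 45.6 in neck cells, 47.4 and 33.7 in endocrine cells, 42.9 and 34.9 in cluster 5 and 26.4 and 26.7 in cluster 3. Its level therefore did not follow that of the other 49 genes.

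In the chromosomal passenger complex, which corrects attachments and later guides cytokinesis, Birc5 (survivin) had 476 and 477 CPM in cluster 4, 73.6 and 79.1 in cluster 3, 72.6 and 51.02 in parietal cells and 21.9 and 20.8 in pit cells. Cdca8 (borealin) had 227 and 229 CPM in cluster 4, 47.9 and 48.7 in cluster 3 and 8.46 and 9.03 in pit cells. Aurkb, the kinase of the complex, had 121 and 130 CPM in cluster 4 and 28.5 and 35.2 in cluster 3, but 0.350 and 0.815 in pit cells and no UMI in the 51 parietal cells. Incenp, its scaffold, had means of 99.9 CPM in cluster 4 and 31.4 in cluster 3. The targeting subunit Birc5 and the kinase Aurkb thus differed outside the isthmus, although both were highest in cluster 4.

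At the kinetochore, Cenpf, a corona protein, had 368 and 378 CPM in cluster 4, 26.1 and 19.96 in cluster 3 and 22.3 and 25.9 in pit cells, so that pit cells and cluster 3 overlapped. Cenpa, the centromeric histone H3 variant, had 317 and 330.5 CPM in cluster 4, 99.8 and 87.3 in parietal cells, 17.1 and 19.4 in pit cells and 10.98 and 9.80 in cluster 3. It showed the largest step from cluster 3 to cluster 4 of the 50 genes (4.83 on the log2(CPM + 1) scale). Cenpe, a kinetochore motor, had a mean of 211 CPM in cluster 4, and Ndc80, Nuf2 and Spc25, 3 subunits of the complex that binds microtubules, had means of 51.8, 44.3 and 88.5 CPM.

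Of the kinesins, Kif23, of the central spindle, had 151 and 156 CPM in cluster 4 and 29.2 and 30.8 in cluster 3, and Kif20b, which acts in cytokinesis, had 130 and 133 in cluster 4 and 38.5 and 37.2 in cluster 3. Kif11, which pushes spindle poles apart, had 131 and 129 CPM in cluster 4 and 26.7 and 31.3 in cluster 3. Kif2c, a microtubule depolymerase, had 50.5 and 47.2 CPM in cluster 4, 3.33 and 3.62 in cluster 3 and at most a mean of 1.47 elsewhere. Kif20a and the chromosome-bound Kif4 had means of 61.4 and 70.8 CPM in cluster 4. Kif11 and Kif2c were among the 6 genes whose highest mean outside the isthmus was the smallest share of their cluster 4 mean, at 4.21% and 3.01%.

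Among other spindle proteins, Nusap1, which bundles spindle microtubules, was the gene most restricted to the isthmus: 208 and 216 CPM in cluster 4, 21.6 and 34.0 in cluster 3 and a highest mean of 5.79 elsewhere, or 2.73% of its cluster 4 mean. Prc1, which crosslinks the central spindle, had 274 and 280 CPM in cluster 4, 46.0 and 50.5 in cluster 3, 1.05 and 3.01 in pit cells and none in parietal cells. Stmn1, which destabilizes microtubules and is used as a marker of isthmus stem cells, was broad instead, with 843 and 896 CPM in cluster 4, 419 and 524 in cluster 3, 244 and 145 in parietal cells, 85.7 and 74.4 in pit cells, 29.5 and 45.6 in endocrine cells and 6.48 and 9.595 in chief cluster 1. Tpx2, Hmmr, Ckap2 and Ckap2l, which nucleate or stabilize spindle microtubules, had means of 168, 182, 85.0 and 98.3 CPM in cluster 4.

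For cytokinesis, Racgap1, of the central spindle, had 169 and 168 CPM in cluster 4 and 30.7 and 35.6 in cluster 3, and Ect2, the activator of RhoA at the cleavage site, had 112 and 114 in cluster 4 and 19.0 and 25.3 in cluster 3. Anln, which links the contractile ring to the membrane, had means of 94.1 and 16.7 CPM in the same clusters. Of the condensin genes, the core ATPase gene Smc4 had 393 and 398 CPM in cluster 4, 130 and 140 in cluster 3, 24.9 and 18.5 in endocrine cells and 10.96 and 10.4 in chief cluster 1. Its partner Smc2 had 208 and 217 CPM in cluster 4 and 112.5 and 112.7 in cluster 3, one of the 3 genes that differed by less than 2-fold between these clusters, the others being Stmn1 and Pttg1. The subunits Ncapd2 and Ncapg had means of 53.3 and 67.4 CPM in cluster 4.

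Of the proteins of the mitotic chromosome, Hmgb2, a DNA-bending protein, was the most abundant of the 50, with 2162 and 2206 CPM in cluster 4, 663 and 680 in cluster 3, 351 and 273 in parietal cells, 185 and 176 in pit cells and 24.9 and 27.1 in endocrine cells. Mki67, the proliferation marker Ki-67, had 575 and 604 CPM in cluster 4, 113 and 135 in cluster 3, 46.4 and 31.4 in parietal cells, 30.8 and 36.9 in pit cells, 15.4 and 12.1 in neck cells and 4.23 and 3.76 in chief cluster 1. Top2a, topoisomerase II alpha, had 512 and 527 CPM in cluster 4 and 139.6 and 140.1 in cluster 3, but only 3.78 and 4.45 in pit cells and 0 and 0.981 in parietal cells. Mki67 and Top2a, which are often read as equivalent marks of cycling cells, were thus of like level in cluster 4 and apart in pit and parietal cells.

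The promoters of 5 of these genes are shown because they carry both sequence elements known from late cell cycle genes. The cell cycle homology element is TTTGAA (or TTTAAA), and CCAAT is bound by NF-Y. The sequences are the 120 bases before the RefSeq transcription start on GRCm38.p6, 5′ to 3′ on the strand of the gene, of the 5 genes with the highest level in cluster 4 that hold the first element within these bases and a CCAAT within 250 bases before the start. Capitals mark the elements on either strand (TTTGAA reads TTCAAA, and CCAAT reads ATTGG, on the other strand). They lie at chr8:57511723-57511842 (+) for Hmgb2, chr2:164769809-164769928 (+) for Ube2c, chr7:135716380-135716499 (-) for Mki67, chr11:99024190-99024309 (-) for Top2a and chr10:69352913-69353032 (-) for Cdk1.
Hmgb2: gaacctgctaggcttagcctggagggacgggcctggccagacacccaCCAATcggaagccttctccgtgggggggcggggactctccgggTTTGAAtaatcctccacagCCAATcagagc
Ube2c: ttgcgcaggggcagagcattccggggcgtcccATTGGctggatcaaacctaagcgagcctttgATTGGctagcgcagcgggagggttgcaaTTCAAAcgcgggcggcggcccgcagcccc
Mki67: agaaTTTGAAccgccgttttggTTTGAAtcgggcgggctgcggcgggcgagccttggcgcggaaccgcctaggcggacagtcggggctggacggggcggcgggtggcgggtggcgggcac
Top2a: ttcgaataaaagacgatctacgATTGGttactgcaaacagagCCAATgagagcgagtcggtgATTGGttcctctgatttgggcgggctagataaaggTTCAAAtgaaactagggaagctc
Cdk1: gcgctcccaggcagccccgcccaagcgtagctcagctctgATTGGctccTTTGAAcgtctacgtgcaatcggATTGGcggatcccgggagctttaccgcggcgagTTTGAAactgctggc

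Positions are counted from the RefSeq start, with -1 the base before it. The mm10 annotation places other starts, at chr8:57511907 for Hmgb2, chr2:164769898 for Ube2c, chr7:135716361 for Mki67 and chr10:69352938 for Cdk1. Bases just after the RefSeq start were found in an annotated transcript for Ube2c, Top2a and Cdk1, but not for Hmgb2 and Mki67. Those of Ube2c and Cdk1 lie within the bases shown, so the positions hold for the RefSeq starts only. In Hmgb2 the first element began at -30 and in Ube2c at -29, in Top2a at -23, and in Cdk1 at -71 and -15, while the pair in Mki67 lay farther out, at -116 and -98. CCAAT began at -73 and -11 in Hmgb2, at -88 and -57 in Ube2c, at -98, -78 and -58 in Top2a and at -80 and -48 in Cdk1, and that of Mki67 lay beyond the bases shown. Of the 43 genes found in the RefSeq promoter table, 17 (39.5%) held the first element within 120 bases, against 13.5% of 27025 genes with a promoter in the table. CCAAT within 250 bases was found in 34 (79.1%), against 37.5% of all genes, and both together in 16 (37.2%), against 4.76%. Of 40 DNA replication genes with a promoter, 3 (7.5%) held the first element and 2 (5%) both. Of 52 other mitosis genes, 18 (34.6%) held the first element and 13 (25%) both. Matches that overlap were each counted. A match of letters is a description and not a bound site. Tpx2, Ccna2, Smc4, Kif20a, Aurkb, Stmn1 and Incenp were not matched.

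The genes were then set in order by their tie to DNA replication genes within cluster 4. Over its 358 Epcam+ cells, thinned to 12773 UMIs each, the correlation of a gene with the summed replication genes was negative for 12 of the 50 genes and positive for 38. The points are cells of 2 libraries that share depth and cluster, and genes are not independent of each other, so no p is given. It was lowest for Cenpa (-0.48), Ccnb2 (-0.47), Cdc20 (-0.38), Ccnb1 (-0.22) and Pttg1 (-0.20). It was highest for Top2a (0.65), Aurkb (0.57), Cdk1 (0.56) and Stmn1 (0.55). The low end held the B-type cyclins and Cdc20, known for peaking at mitosis itself. It also held Pttg1, whose correlation with the summed other genes of the 50 was -0.096 over the same cells. The place of Pttg1 in the order is therefore not read as a phase. The high end held Aurkb, the kinase of the passenger complex, beside Top2a, Cdk1 and Stmn1. Plk1 (0.13), Aurka (0.21) and Ube2c (0.10) were among the positive genes, and the order was not tested against known phase.

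The same order went with where a gene was seen outside the isthmus. Over the 50 genes, Spearman's rho between this correlation and the log2 ratio of pit cells to cluster 3 was -0.74 and that for parietal cells to cluster 3 was -0.80, with -0.63 for neck cells and -0.58 for cluster 5. These share the cluster 3 level in every ratio, and against cluster 4 the values were -0.29 for pit and -0.49 for parietal cells. In pit cells, Ccnb2 and Cenpa exceeded cluster 3 in both libraries, and Cenpf, Cdca3 and Pttg1 did so only in the mean. In parietal cells, Cenpa, Ccnb2, Cdc20, Ccnb1, Pttg1, Nek2 and Cdca3 exceeded cluster 3 in both libraries, from 51 cells in all. After thinning, 2 cells in each library held 37.6% and 45.8% of the parietal UMIs of the 50 genes. Parietal levels throughout thus rest in large part on few cells.

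**Figure D2:**
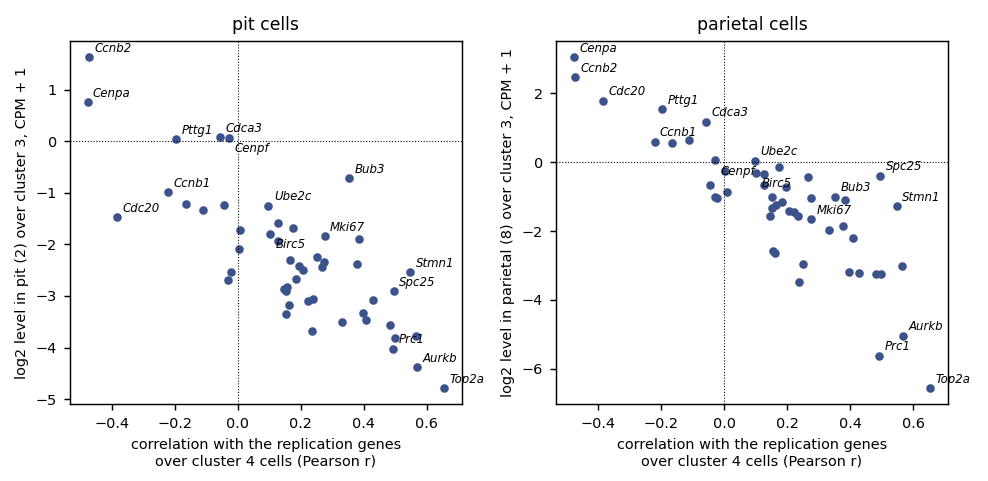
Each of the 50 genes as a point: on the x axis its correlation with summed DNA replication genes over 358 cells of cluster 4, on the y axes the log2 ratio of its level (CPM + 1) in pit cells (left) and parietal cells (right) to cluster 3, from the mean of the Epcam+ libraries. Ccnb2 and Cenpa lie at the upper left of both panels and Top2a at the lower right, with Spearman's rho of -0.74 and -0.80.

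Detection in single cells was compared after thinning every cell to 12773 UMIs outside the 3 secretory genes, which left out 445 shallower cells (15 Epcam+ pit, 90 neck and 64 cluster 5 cells among them) and kept 4004. Intervals are 95% Wilson intervals and, like all counts here, cover counting error only. The reference for a low share is endocrine cluster 6, hormone-secreting cells that rarely divide, whose median depth was 17904.5 and 15545.5 such UMIs in the Epcam+ libraries, against 39009 and 34232.5 in pit cells. In 800 pit cells, Hmgb2 was detected in 82.2% (79.5 to 84.7), Stmn1 in 49.6% (46.2 to 53.1) and Bub3 in 42.9% (39.5 to 46.3). In 847 neck cells, Hmgb2 was detected in 64.3%, Bub3 in 48.1% and Pttg1 in 47.1%, and in 112 cells of cluster 5, Bub3 in 46.4%, Hmgb2 in 46.4% and Pttg1 in 42.0%.

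In endocrine cells, Bub3 was detected in 61.1% and Pttg1 in 40.7%, so that their shares in neck and pit cells and in cluster 5 were near or below those of a cell type in which no cell held more than 5 of the 50 genes. Hmgb2 (20.4%) and Stmn1 (23.0%) were lower there than in pit cells, whereas the 24.1% for Stmn1 in cluster 5 and 20.9% in neck cells were within the endocrine interval of 16.2 to 31.6%. The median over the 50 genes was 4.44% of pit cells, or 8.96% without thinning. At the other end, Anln was detected in 0.375% of pit cells, Kif2c and Ckap2l in none of 847 neck cells, which allows a share of up to 0.354%, and Kif2c in none of 112 cells of cluster 5, which allows up to 2.68%. These limits are 3 cells of the total and concern cells with a UMI at the thinned depth.

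Ccnb2 was detected in 22.5% of pit cells (19.7 to 25.5), 7.17% of cluster 3, 4.25% of neck cells, 5.36% of cluster 5 and 1.77% of endocrine cells. Mki67 was detected in 22.1% of pit cells, 48.7% of cluster 3, 8.03% of neck cells, 9.82% of cluster 5 and 1.77% of endocrine cells. Top2a was detected in 4.50% of pit cells, 55.8% of cluster 3, 3.07% of neck cells, 7.14% of cluster 5 and 0 of 113 endocrine cells. Pit cells were thus above the endocrine share for Ccnb2 and Mki67, and cluster 3 was above pit cells for Mki67 and Top2a but below them for Ccnb2. Cenpa was detected in 15.1% of pit cells and 10.3% of cluster 3, and Aurkb in 0.625% and 22.2%.

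The number of these genes found in the same cell was counted, with the broadly expressed genes among them. At least 10 of the 50 were found in all 358 cells of cluster 4, and in 59.4% and 55.9% of cluster 3 in the Epcam+ libraries. The share was 14.4% and 12.5% in pit cells, 2.99% and 1.79% in neck cells, 15.3% and 5.66% in cluster 5, 31.8% and 14.3% in parietal cells and 0.60% and 0% in chief cluster 1. Without thinning it was 39.4% and 30.1% in pit cells, 4.76% and 4.23% in neck cells and 16.5% and 5.49% in cluster 5. None of 113 endocrine cells reached it, thinned or not, and the most any of them held after thinning was 5. Pit cells with 10 or more therefore numbered 107 of 800, and those of cluster 5 numbered 12 of 112. Of these, 0 of the 107 and 4 of the 12 were called doublets. The 107 pit cells summed to 61125 and 88887 CPM of pit markers, against 97100 and 115910 in the other pit cells. Their neck markers summed to 31606 and 26097 CPM, against 27395 and 26190. The part of these marker differences was not tested. The 5% of pit cells with the most UMIs of the 50 genes held 20.5% and 22.6% of them, and the same share of cluster 5 held 33.3% and 51.1%. In the parietal cluster, the top 2 of 22 and 2 of 28 cells held 37.6% and 45.8%. With only the 45 genes at least 4 times higher in cluster 4 than outside the isthmus, fewer pit cells held at least 10, 7.37% and 6.49%. The shares were then 1.995% and 0.673% in neck cells and 15.3% and 5.66% in cluster 5.

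**Figure D3:**
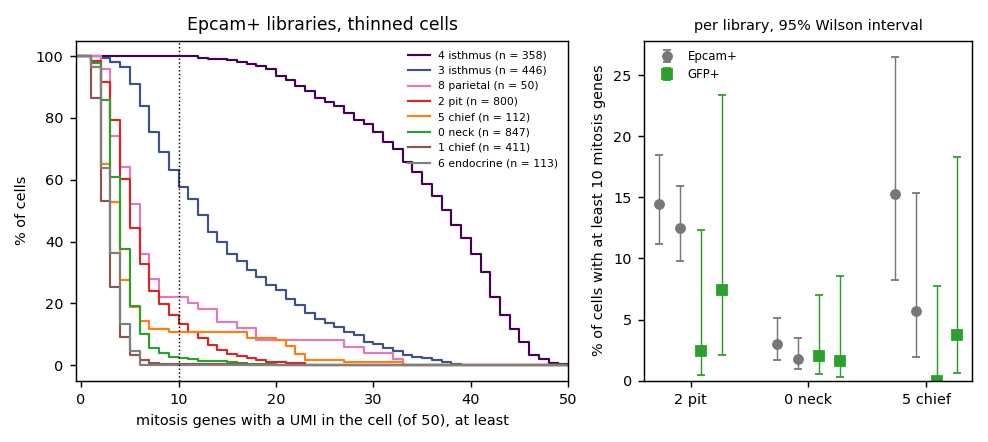
Left, percent of thinned Epcam+ cells (y axis) with at least the number of mitosis genes on the x axis, by cluster, with a dotted line at 10 genes, which 107 of 800 pit cells, 20 of 847 neck cells and no endocrine cell reached. Right, percent of cells with at least 10 of the genes in each library of clusters 2, 0 and 5, with 95% Wilson intervals (Epcam+ grey, GFP+ green).

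The cells that reached 10 genes held different genes in different clusters. In the 107 pit cells, Ccnb2 was detected in 89.7%, Mki67 in 85.0%, Cdca3 in 80.4% and Cenpa in 67.3%, but Top2a in 18.7%, Cdk1 in 16.8%, Prc1 in 4.67% and Aurkb in 0.935%. In the 20 neck cells, Ccnb2 and Cenpf were detected in 90%, Cenpa in 75% and Top2a in 10%. The 11 parietal cells held Cenpa in 100%, Ccnb2 in 90.9% and Top2a, Prc1 and Aurkb in none, but also Cdk1 in 54.5% (28.0 to 78.7) and Mad2l1 in 81.8%, against 33.6% for Mad2l1 in the pit cells. The 257 cells of cluster 3 showed the reverse, with Cdk1 in 86.0%, Top2a in 80.9%, Cenpa in 13.2% and Ccnb2 in 11.3%.

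Only 12 cells of cluster 5 reached 10 genes, 9 and 3 in the Epcam+ libraries, of which 2 in each were called doublets. In these 12, Cdk1 and Ccna2 were detected in 91.7%, Aurkb in 66.7%, Top2a in 50%, Ccnb2 in 33.3% and Cenpa in 25%. Their median number of replication genes was 24 and 36 in the Epcam+ libraries, against 32 and 33 in such cells of cluster 3 and 5 and 4 in such pit cells. In Epcam+ replicate 1 the 9 cells had a median of 3268 genes and 0.368% mitochondrial UMIs, against 4380 genes and 3.53% in the other cells of cluster 5. The cells of cluster 5 with 10 or more summed to 50445 and 56004 CPM of pit markers and 62580 and 73280 CPM of chief markers, against 23714 and 13918 and 44185 and 40799 in the others. The part of doublets or of cell quality in these values was not tested. Choosing cells by 10 or more genes sets how many they hold. Which genes they hold is a description, because the clusters were made from the expression of genes that include these.

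**Figure D4:**
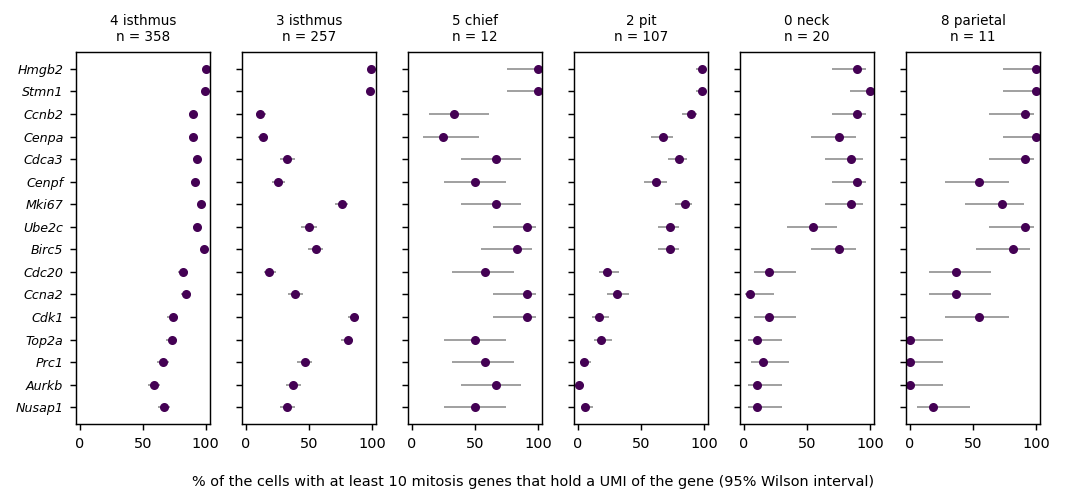
Percent (x axis, with 95% Wilson intervals) of the Epcam+ cells with at least 10 of the 50 genes in which each of 16 of the genes was detected, 1 panel a cluster. Ccnb2 and Cenpa are frequent in pit, neck and parietal cells and rare in cluster 3, while Top2a and Cdk1 are frequent in cluster 3 and rare in pit and neck cells.

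The comparison of the sorts asks whether label-retaining cells differ from all epithelial cells of the same cluster in these genes. The sums of UMIs in each library and cluster entered edgeR's quasi-likelihood fit (two-sided test), with Benjamini-Hochberg adjustment over all genes tested. A lower sum cannot tell fewer cells with a transcript from less transcript per cell. In pit cells, 1 of the 36 genes that passed the filter on low counts was called at an adjusted p of 0.05, against 0.364% of all genes tested, and 18 had an unadjusted p under 0.05. The other 14 had too few counts to be tested. The share of all genes tested with an unadjusted p under 0.05 was not computed in any comparison of the sorts. Counts under that threshold, here and below, therefore have no background and are a description only. A gene could pass the filter through the counts of 1 sort alone, which can set the direction of its change. The share of negative changes over all genes tested was not computed. Counts of negative changes and medians, here and below, are therefore also a description only.

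The gene called in pit cells was Birc5 (chr11:117849251-117855743 on mm10, + strand). It had 20.6 and 19.8 CPM (of all UMIs, TMM-scaled, as in all comparisons of the sorts) in the Epcam+ pit cells and 6.38 and 7.43 in the GFP+ pit cells, from 18 and 12 UMIs in the GFP+ libraries. Both GFP+ libraries lay below both Epcam+ libraries, and Birc5 fell by 1.57 on the log2 scale (SE 0.20, edgeR adjusted p = 0.0349). The adjusted p was 0.0897 without GFP+ replicate 1, and over all alternatives the log2 change ranged from -1.44 to -1.66.

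The next genes in pit cells did not pass the threshold. Stmn1 was at 80.7 and 70.8 CPM in Epcam+ pit cells against 46.1 and 36.5 in GFP+ ones (log2 -0.85, edgeR adjusted p = 0.0698). Cenpa had 16.1 and 18.4 against 6.73 and 7.43 (log2 -1.30, edgeR adjusted p = 0.0698), and Mki67 had 29.0 and 35.2 against 10.99 and 18.6 (log2 -1.21, edgeR adjusted p = 0.0894). Groups did not overlap for these 3 genes, but the share of all genes tested without overlap was not computed. Cenpf (log2 -1.74) and Cenpe (-1.88) were of like size, with adjusted p of 0.0812 and 0.0894, while Pttg1 was at 0.43 (0.247). Of the 36 genes, 30 had a negative log2 change, with a median of -0.84 against -0.004 over all genes tested, which describes the genes that had counts enough to test. DESeq2 called 4 of the 36, namely Birc5, Cenpf, Mki67 and Stmn1, with no adjusted p for 23, and 161 of all 10983 genes. Marker sums moved with the sort in these cells. Pit markers summed to 148420 and 207040 CPM in the GFP+ libraries against 103560 and 122300 in the Epcam+ libraries, neck markers to 21342 and 11790 against 26257 and 24673, and tuft markers to 69.3 and 56.4 against 34.6 and 37.0. Their part in the result was not tested.

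**Figure D5:**
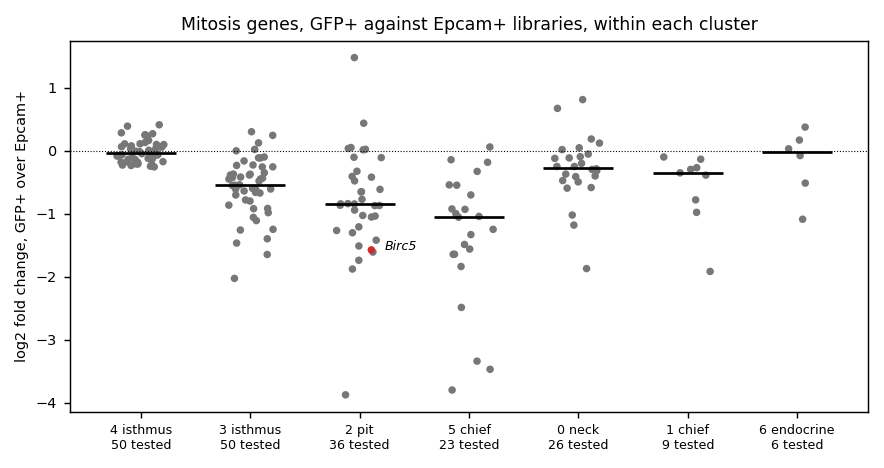
Log2 change (GFP+ against Epcam+, y axis) of each mitosis gene that was tested in each of 7 clusters, 1 point a gene, with the median as a bar. Most points of clusters 2 and 5 lie below 0, with medians of -0.84 and -1.06 (-0.25 in cluster 5 without the cells called doublets), and Birc5 in cluster 2 (red) is the only point past the threshold. A gene could pass the filter through 1 sort alone, so where the points lie is a description only.

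In neck cells none of the 26 genes tested was called by edgeR (background 0.159%) or by DESeq2, and 5 had an unadjusted p under 0.05. Of the 26, 20 had a negative log2 change, with a median of -0.27 against 0.009 over all genes tested. Ccnb2 had 7.57 and 6.34 CPM in the Epcam+ neck cells and 14.4 and 8.69 in the GFP+ neck cells (log2 0.81, edgeR adjusted p = 0.354), so that its direction was opposite to that in pit cells (log2 -0.48, edgeR adjusted p = 0.196). In chief cluster 1, where 145 and 257 cells of the GFP+ libraries lay, only 9 genes had counts enough to test. None was called by edgeR (background 0.0887%) or DESeq2, and 2 had an unadjusted p under 0.05. All 9 log2 changes were negative, with a median of -0.35 against 0.008 over all genes tested. The median of the mitosis genes was -0.82 without Epcam+ replicate 2, -1.05 without GFP+ replicate 1 and -0.78 without GFP+ replicate 2. Up to 16 of them were tested there. Mki67 had 0.747 and 0.657 CPM in the Epcam+ chief cells and 0.0933 and 0.235 in the GFP+ ones, from 2 and 9 UMIs (log2 -1.92, edgeR adjusted p = 0.375).

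In cluster 5 none of 23 genes was called by edgeR (background 0.309%) or DESeq2, and 10 had an unadjusted p under 0.05. Of these genes 22 had a negative log2 change, and their median was -1.06 against 0.003 over all genes tested. Without the cells called doublets, the median of the mitosis genes was -0.25 over 13 genes, none with an unadjusted p under 0.05. It was -0.33 without GFP+ replicate 1 and -3.10 without GFP+ replicate 2. Cdca8 had 8.76 and 4.97 CPM in the Epcam+ cells and 0.316 and 1.01 in the GFP+ cells, from 1 and 2 UMIs in the latter, with an edgeR adjusted p of 0.0569. Cenpa had 4.78 and 7.18 against 0 and 1.01 CPM, with an edgeR adjusted p of 0.0880. The libraries within a sort differed here as much as the sorts, since Stmn1 had 54.4 and 30.6 CPM in the Epcam+ cells and 3.79 and 34.3 in the GFP+ cells. Without GFP+ replicate 2, edgeR called 17 of 32 genes, against 226 of all 9861 genes tested. In the Epcam+ libraries, summed levels in cluster 5 were 825 CPM with all cells and 522 CPM without the cells called doublets.

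In endocrine cluster 6 none of 6 genes was called (background 0.221%), with 1 at an unadjusted p under 0.05 and none called by DESeq2. The isthmus clusters held few GFP+ cells, 17 and 10 in cluster 3 and 11 and 8 in cluster 4. In cluster 3 none of 50 genes was called by edgeR (background 0.307%) or DESeq2, with 17 at an unadjusted p under 0.05. Cdca3 came nearest, with 25.1 and 27.3 CPM against 10.4 and 3.90 (log2 -1.65, edgeR adjusted p = 0.0838), and the median of the 50 was -0.55. In cluster 4 none of 50 was called by edgeR (background 0.019%) or DESeq2, none had an unadjusted p under 0.05, and the median was -0.04. The summed level of the 50 genes was 13502 and 8561 CPM in the GFP+ cells and 11997 and 12394 in the Epcam+ cells, so that the GFP+ libraries lay on either side. The median was -0.26 without GFP+ replicate 1, with 42 of 50 negative, and 0.13 without GFP+ replicate 2. Mki67 had 459 and 513 CPM against 533 and 567.

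Whether the sorts differed more in pit cells and cluster 5 than in neck cells was tested as an interaction. None of 29 genes was called by edgeR (background 0.896%), and 7 had an unadjusted p under 0.05. Ccnb2 came nearest, with an edgeR adjusted p of 0.218. The share of pit cells with at least 10 of the 50 genes was 14.4% and 12.5% in the Epcam+ libraries and 2.38% and 7.41% in the GFP+ libraries, from 42 and 27 cells. The difference was -8.59 percentage points (exact two-sided permutation p = 0.333, and 2 against 2 libraries allow none smaller). In cluster 5 the shares were 15.3% and 5.66% against 0% and 3.704% (exact permutation p = 0.333), and in neck cells 2.99% and 1.79% against 2.00% and 1.61% (exact permutation p = 0.667). GFP+ pit cells were deeper (66125 and 63130 UMIs at the median), and without thinning the difference in pit cells was 0.179 percentage points.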

How the data were processed

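Single epithelial cells from 4 libraries (2 Epcam+, 2 GFP+) were analysed. Per the labels and methods, the authors counted UMIs from a 3′ kit with Cell Ranger 3.0.2 on mm10, removed cells with over 15% mitochondrial counts, over 8000 or under 1500 genes, or any Ptprc or Pecam1 count, and clustered the rest with Seurat. The deposited values are raw counts with the authors' cluster of each cell. No count column was left unused. Reads shared by near-identical gene copies were not examined, and 10 of the 50 genes overlap a coding gene on the other strand.

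The members and lists were chosen with earlier results of these data known. Named in full were the 2 highest genes in cluster 4 of each role, Mki67, Top2a, Stmn1, the 6 broadest and 6 most restricted genes, the 3 most detected in clusters 2, 0 and 5, and any gene called.

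UMIs were summed per library and cluster (at least 20 cells, or 5 in clusters 3 and 4). Sorts were compared with edgeR 4.0.16 in R 4.3.3 (TMM, filterByExpr, quasi-likelihood, adjusted p 0.05), and the interaction was fitted with the library as a block. On simulated counts the edgeR steps recovered the genes changed. How well they recover changes in genes with few UMIs was not tested, so a gene not called may still differ. Scrublet, as in scanpy 1.11.5, marked 74 cells (1.66%) as doublets, library by library, and these were kept unless stated. Cells were thinned at seed 1 to the 10th percentile of depth. Alternatives were DESeq2 1.42.0, relative log expression (RLE) size factors, no filter, a replicate block, other thresholds and depths, other scalings, and leaving out doublets or each library. The rank correlations over genes, the median detection, and their alternatives (levels set against cluster 4, no thinning) were chosen after seeing the data. Depth is a limit, since many genes had under 20 UMIs in the GFP+ libraries. Positions follow the mm10 annotation and promoters RefSeq.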

Additional observations from a re-analysis of the deposited data

How the results depend on the processing

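The direction across clusters did not depend on the scaling. All 50 genes were higher in cluster 4 than in cluster 3, and 49 were highest in cluster 4, with CPM of all UMIs, with TMM over all libraries and clusters, without doublets and without each library. The summed level in cluster 5 (825 CPM) was 367 with CPM of all UMIs, 516 with TMM and 522 without doublets, and that in pit cells (690 CPM) was 513 with TMM. The median detection over the 50 genes in pit cells (4.44%) was 8.96% without thinning. Against cluster 4 in place of cluster 3, the rank correlations were -0.29 for pit and -0.49 for parietal cells.

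Counts of genes called between the sorts moved with the setting. With no filter on low counts edgeR called 10 in cluster 2 (639 of all 15873 genes) and 9 in cluster 5 (178 of 14837). It called 6 in the interaction (440 of 16879) and 1 each in clusters 1 (236 of 15390), 6 (140 of 15455) and 3 (88 of 15651). DESeq2 called 4 in cluster 2 (161 of 10983). Leaving out each library in turn gave 0 to 5 in cluster 2, 0 to 17 in cluster 5 (17 without GFP+ replicate 2, with 226 of all 9861 genes), 0 to 1 in cluster 6, 0 to 6 in cluster 3, 0 to 8 in cluster 4 (8 without GFP+ replicate 1) and 0 to 5 in the interaction, where a lone library is assumed to vary like the others. Birc5 in cluster 2 kept its direction in all 9 alternatives, with adjusted p of 0.0897 without GFP+ replicate 1 and 9e-06 to 0.0329 in the others. The share of cells with at least 10 genes in cluster 2 differed by 0.179 percentage points without thinning. It differed by -1.89 at 15 genes, -14.1 at 5 genes, -3.22 with only the genes at least 4 times higher in cluster 4 and -13.6 at the 25th percentile of depth (main -8.59). In cluster 0 the difference (-0.587) was 0.334 at 15 genes, 1.45 thinned on all UMIs, 1.28 not thinned, 0.473 with only the genes at least 4 times higher in cluster 4, and -1.19 to 0.0127 without each library. The cause of these moves was not tested.

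With a replicate block, edgeR called 6 in cluster 2 (Birc5, Cenpa, Cenpf, Cks2, Mki67, Stmn1), 3 in cluster 3 (Birc5, Cdca3, Cenpf) and 1 in cluster 1 (Mki67), and changed no other count of members. Over all genes the calls went from 40 to 222 in cluster 2, 33 to 268 in cluster 3 and 9 to 412 in cluster 1. Nothing in the labels ties libraries of the same number, and the correlation of the deviations of same-numbered libraries was -0.04 in cluster 5 and 0.10 to 0.25 in the other clusters, from 2 pairs only.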
